A study of Mus musculus with 6 samples.

Results

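Foxp1, Foxp2, Foxp3 and Foxp4 form the P subfamily of forkhead transcription factors, and the 3 members expressed in nervous tissue (Foxp1, Foxp2 and Foxp4) are described here across the cell classes of the mouse lumbar spinal cord. They were taken as the rows of the count matrices that carry these gene symbols, 3 of 32285 genes, and they were chosen as a family with earlier results of these data known, so their levels by cell class are a description without a test. Forkhead P proteins bind DNA through a winged-helix domain, pair with themselves and with each other through a leucine zipper, and act mostly as repressors together with corepressors such as the Ctbp proteins and the nucleosome remodelling and deacetylase complex. In the developing cord Foxp1 sets the identity of limb-innervating motor neurons of the lateral motor column through the Hox code, and Foxp2 marks a large subset of V1 inhibitory interneurons, the ventral class that is defined by the transcription factor En1 and that controls motor neuron firing. Foxp2 is otherwise known for its part in vocal and motor circuits, and Foxp4 for roles in the development of lung, gut and neural epithelium.

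Single nuclei had been taken from frozen lumbar cord of C57BL/6 mice aged 110 days and profiled with a droplet-based 3' kit, in which a unique molecular identifier (UMI) lets each captured RNA molecule be counted a single time. All animals carried SOD1G93A, a mutant human SOD1 transgene used to model amyotrophic lateral sclerosis, and no library came from mice without it. They differed in Egln2, the gene of the oxygen-sensing prolyl hydroxylase PHD1: 3 libraries were SOD1G93A/PHD1+/+ and 3 were SOD1G93A/PHD1-/-. The protocol speaks of littermate pairs without tying them to the replicate numbers.

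After filtering, 41896 nuclei remained, 5209 to 9153 per library with median depths of 1363 to 2904 UMIs. Replicate 1 of both genotypes had the lowest median depth, carried another set of barcodes, and yielded 0 called doublets. Libraries shared 0 to 86 cell barcodes, the 86 between the replicate 1 libraries of both genotypes. Both replicate 1 libraries also held RNA of both sexes, with Xist (the female X-inactivation RNA) at 487 and 1112 CPM (UMI counts per 1000000 UMIs) and 4 Y-linked genes at 257 and 136 in PHD1+/+ and PHD1-/-, whereas Xist was at most 0.432 in the other 4 libraries, so a single library can represent several animals, which the labels do not state. Egln2 had 21.6 ± 7.04 CPM in the PHD1+/+ libraries and 9.59 ± 0.531 in the PHD1-/- ones (SD; n = 3 per genotype). The genotypes did not overlap (two-sided exact permutation p = 0.10, which is the minimum for 3 against 3). Levels below are CPM from UMIs summed over the nuclei of a class in each library, given as mean ± SD of the 6 libraries. Since reads may lie in exons or introns and the genes differ in length, levels were compared within a gene and not between genes.

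The 3 genes differ in size and place. Foxp1 (ENSMUSG00000030067) spans 597 kb on the minus strand of chromosome 6 (GRCm38, chr6:98925338-99522721), of which 97.7% is intronic. Foxp2 (ENSMUSG00000029563) lies on the plus strand of the same chromosome (chr6:14901349-15441977, 541 kb, 97.0% intronic), and Foxp4 (ENSMUSG00000023991) on the minus strand of chromosome 17 (chr17:47867133-47924645, 57.5 kb, 91.4% intronic). The nuclei held 38347 Foxp1, 6834 Foxp2 and 1609 Foxp4 UMIs. A sense intronic gene inside Foxp1 that the files list separately, Gm20705, held 40 UMIs, and Gm15556, antisense to Foxp4, held 0.

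Foxp1 was read in every one of the 15 cell classes and was highest outside the neurons. Border macrophages of the meninges and vessels had 1271 ± 721 CPM, a mean that rests on 88 nuclei and on as few as 2 in a library. Lymphocytes (65 nuclei) had 1083 ± 615, with 0 UMIs in the 5 nuclei of PHD1+/+ replicate 1. Endothelial cells, which line the vessels, had 556, 1828 and 919 CPM in the PHD1+/+ libraries (replicates 1, 2 and 3, the order used throughout) and 779, 961 and 1375 in the PHD1-/- libraries. Meningeal fibroblasts, the collagen-making cells of the coverings, had 479, 1098 and 1289.9 against 577, 844 and 1114. Both genotypes overlapped in these classes, and replicate 1 gave the lowest endothelial value of each genotype and the lowest fibroblast value of each. Mural cells, the contractile cells around vessels, followed with 662 ± 231.

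The remaining classes lay within a narrower range of Foxp1. Microglia had 431 ± 106 CPM, Schwann cells 385 ± 133, ependymal cells 383 ± 91.2 and oligodendrocytes 349 ± 63.8. Astrocytes had 214 ± 36.9, excitatory neurons 198 ± 35.3, inhibitory neurons 197 ± 31.8, oligodendrocyte precursors 164 ± 27.1 and newly formed oligodendrocytes 151 ± 72.6. Within the oligodendrocyte lineage the mature cells (255 to 395 CPM) thus stood above the precursors (126 to 203), and their library ranges did not overlap. In the full order of 15 classes, every class overlapped in its library range with the next one below it. Neurons, as 37.4% of nuclei, held 53.9% of all Foxp1 UMIs and 66.0% of all UMIs. Among clusters left without a name, the one led by the B cell genes Igkc, Bank1 and Pax5 (62 nuclei in 5 libraries) held the highest Foxp1 values, 2824 to 4056 CPM.

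**Figure D1:**
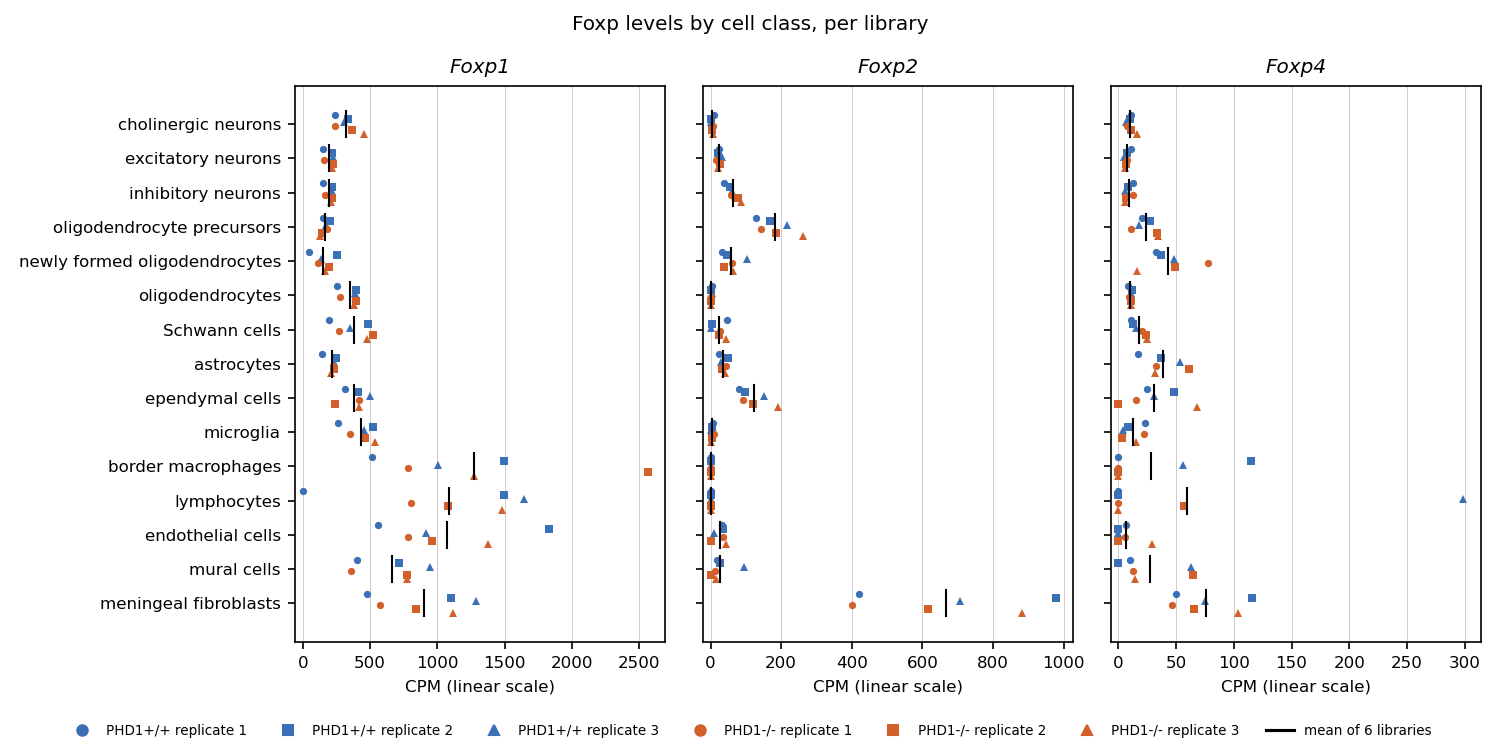
Foxp1, Foxp2 and Foxp4 in CPM (x axes, linear, with their own range in each panel) in 15 cell classes, 1 point per library (colour: genotype, shape: replicate number) and a black bar for the mean of 6 libraries. Foxp1 is present in every class, Foxp2 is highest in meningeal fibroblasts (402 to 977) and oligodendrocyte precursors (128 to 261), and the single Foxp4 value near 299 in lymphocytes rests on a class with 3 Foxp4 UMIs in all.

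In neurons Foxp1 was broad. Over the 42 neuron clusters it ran from 112 ± 35.4 CPM in the inhibitory cluster led by Adamts5, Nox4 and Eya4 to 324 ± 81.5 in the cholinergic cluster, a 2.88-fold span around a median of 203. Neighbours in this order overlapped in every case. The cholinergic cluster was named from the sum of Chat (choline acetyltransferase, 226 CPM), Slc5a7 (choline uptake, 497) and Slc18a3 (vesicular acetylcholine transport, 86.8). High values of these genes there thus follow from the naming. They and the motor neuron genes Prph (peripherin, 327), Isl1 (47.0) and Mnx1 (7.91) were all higher there than in any other neuron cluster. Its 115 nuclei were not split further, so motor neurons of different columns, and any other cholinergic cells that fell in it, are averaged. Not all cholinergic cells did so. The inhibitory cluster led by Nos1, Sox6 and Slc5a7 (45 nuclei) also had Chat among its leading genes. Its Foxp1 was the next highest of the neuron clusters, at 296 ± 86.7 CPM. A further 140 nuclei outside the neuron class, 14 to 39 per library with a median of 1032.5 UMIs, formed a cluster led by Uts2, Spp1 and Srxn1 that also had Slc5a7, Slc18a3 and the neurofilament genes Nefl and Nefh among its leading genes. It was left without a name and out of the cholinergic values, and it held 6 Foxp1, 1 Foxp2 and 2 Foxp4 UMIs.

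Per library the cholinergic Foxp1 level was 240.1, 334 and 306 CPM in PHD1+/+ and 242, 364 and 456 in PHD1-/- libraries. The genotypes overlapped, and replicate 1 was again the lowest of each. Among single cholinergic nuclei, which had a median of 13388 UMIs, 105 of 115 had a Foxp1 UMI, with a median of 330.3 CPM, quartiles of 159 and 531 and a highest value of 1218. The 11 highest nuclei held 29.7% of the cholinergic Foxp1 UMIs. Foxp2 had 7 UMIs in the cholinergic nuclei (5.25 ± 3.96 CPM) and Foxp4 had 20 (10.4 ± 3.31).

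Foxp2 had a different distribution, with few high classes and many near 0. Meningeal fibroblasts had 419, 977 and 705 CPM in PHD1+/+ and 402, 615 and 883 in PHD1-/-, above every other named class in each library. Oligodendrocyte precursors had 128, 168 and 215 against 144, 185 and 261. The genotypes overlapped in both, and replicate 1 was lowest in each genotype. Ependymal cells, which line the central canal, had 123 ± 42.2.

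Along the oligodendrocyte lineage Foxp2 was higher in precursors than in mature cells, whereas Foxp1 was lower. Foxp2 had 184 ± 48.9 CPM in precursors, 57.3 ± 25.9 in newly formed oligodendrocytes and 2.41 ± 1.31 in mature oligodendrocytes, with no overlap of library ranges between any 2 of these stages. At a fixed depth of 1000 UMIs per nucleus, 16.3% of precursors had a Foxp2 UMI (exact 95% binomial interval 14.0 to 18.8) against 0.197% of mature oligodendrocytes (0.119 to 0.307); these intervals cover counting error only. Border macrophages and lymphocytes held 0 Foxp2 UMIs, which allows up to 25.6 and 48.0 CPM at 3 counts over all libraries. Microglia (4.31 ± 3.44) and mature oligodendrocytes give the level that can be read in cells with little or no Foxp2 RNA.

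Among neurons Foxp2 was concentrated in a few clusters. Inhibitory neurons as a whole had 62.5 ± 17.6 CPM and excitatory neurons 23.6 ± 6.43, without overlap of their library ranges. Of the 42 neuron clusters, 27 lay under 5 CPM and 5 reached 50, with a median of 3.81. The highest was an inhibitory cluster of 1143 nuclei led, apart from Foxp2 itself, by Samd5, Zfhx3 and Bmpr1b (the Samd5 cluster), at 147 ± 46.7. The next was an inhibitory cluster of 528 nuclei led by Esrrg, Lrmda and Lgr5 (the Esrrg cluster), at 143 ± 21.9, and these 2 overlapped each other. Both stood above the third, an excitatory cluster led by Lrmda, Esrrg and Scn4b (72.2 ± 20.8), in mean, and the Esrrg cluster did so without overlap. The other 2 above 50 were a cluster called unresolved, led by Chd7, Nfib and Hmcn1 (69.5 ± 20.02), and an excitatory cluster led by Mecom, Zfhx3 and Bmpr1b (55.9 ± 19.2). The Chd7 cluster leaned to the inhibitory side, with 547 CPM for the summed inhibitory markers against 86.4 for the excitatory ones. This fell short of the ratio of 8 asked of an inhibitory cluster, whereas a ratio of 2 was asked of an excitatory cluster. It is therefore in neither neuron type in the comparisons below. The inhibitory cluster next below, led by Tfap2b, Slc6a5 and Klhl14, had 35.1 ± 12.98.

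The Samd5 and Esrrg clusters held 20.2% and 15.6% of all Foxp2 UMIs but 5.93% and 4.87% of all UMIs. They were called inhibitory from their transmitter genes (summed 644 and 587 CPM for the inhibitory markers against 24.3 and 11.7 for the excitatory ones). The glycine transporter gene Slc6a5, itself an inhibitory marker, was among the leading genes of both. Foxp2 was not among the variable genes used to draw these clusters. The V1 marker En1 had its highest values of all neuron clusters in the Esrrg cluster (3.15 CPM) and the Samd5 cluster (2.59), but both lie near 0. Among other V1 markers, Esrrg had 1179 CPM in the Esrrg cluster and 706 in the Samd5 cluster, and Calb1 (a calcium-binding protein gene) had 15.3 CPM in the Esrrg cluster. With most V1 markers under 10 CPM in both clusters, neither cluster was given the V1 name. The cluster of cells that contact the cerebrospinal fluid, led by Pkd1l2, Pkd2l1 and Myo3b, had 0 Foxp2 UMIs in 142 nuclei, which allows up to 5.65 CPM at 3 counts over all libraries.

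**Figure D2:**
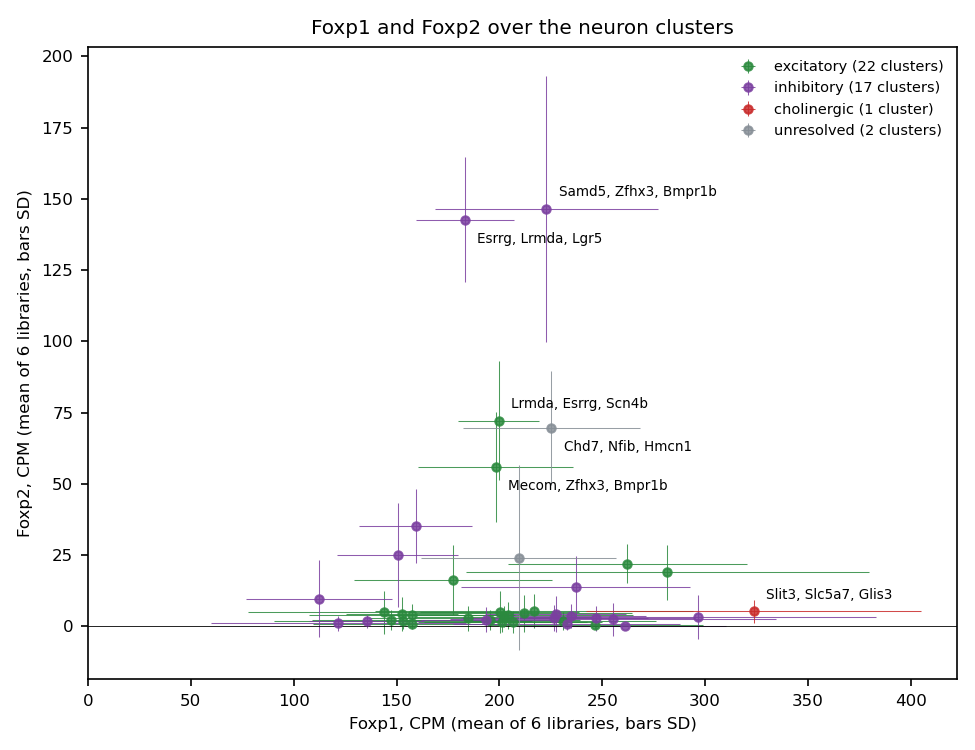
Mean CPM of Foxp1 (x axis) against Foxp2 (y axis) in 42 neuron clusters, each point a cluster coloured by transmitter type with SD bars over 6 libraries. Foxp1 spreads from 112 to 324 in all types, whereas Foxp2 lies near 0 in most clusters and is highest in 2 inhibitory clusters, at 147 and 143.

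Foxp4 was low throughout. It was highest in meningeal fibroblasts (49.9, 115 and 75.1 CPM in PHD1+/+ and 46.6, 65.6 and 103 in PHD1-/- libraries), where the genotypes overlapped and Foxp1 and Foxp2 were high as well. Newly formed oligodendrocytes had 43.3 ± 20.6, astrocytes 38.6 ± 15.8, ependymal cells 31.2 ± 24.1 and precursors 24.0 ± 9.37. Mature oligodendrocytes had 10.4 ± 1.34 and inhibitory neurons 8.92 ± 3.20. The highest of the neuron clusters was the excitatory one led by Dlk1, Cdh9 and Crhbp (21.7 ± 14.2), and the median cluster had 6.96. The lymphocyte mean of 59.2 CPM rests on 3 UMIs.

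Over the 42 neuron clusters, Pearson's r of log2(CPM + 1) between Foxp1 and Foxp4 was 0.62, between Foxp2 and Foxp4 0.25 and between Foxp1 and Foxp2 0.02. These values are descriptions: clusters share libraries and depth, and Foxp4 counts are small. Over neurons and the 12 other classes the value for Foxp1 and Foxp2 was -0.41. Within nuclei thinned to 2000 UMIs, 15.8% of the nuclei with a Foxp1 UMI in the Samd5 cluster also had a Foxp2 UMI, against 15.9% of those without one, so the 2 genes were read together there about as often as their separate shares give. In meningeal fibroblasts the shares were 60.1% and 58.3%.

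The genes whose cluster pattern was most like that of each member, by the same r over the 42 neuron clusters among 7314 genes, were Fxyd6, Scml4, Fbl, Lpcat3 and Jpt1 for Foxp1 (0.67 to 0.61). For Foxp2 they were Zfp612, Epb41, Rpgrip1l, Nexn and Manba (0.70 to 0.68), and for Foxp4 Catspere2, Scml4, Pcyt2, Bmpr2 and Nkain2 (0.78 to 0.70). Of the 5 genes nearest to Foxp2, 4 had their highest value in the Esrrg cluster and Nexn in the excitatory Lrmda cluster. Over the 13 classes the nearest genes were Clec2d, Slc12a7, Serpinb6a, Anxa1 and Gbp8 for Foxp1, Adam12, Hoxc4, Gpc6, Pygo1 and Sh3rf3 for Foxp2, and Tut4, Ppp6r3, S1pr2, Rbmx and Pdpn for Foxp4.

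The comparison of genotypes asked whether loss of PHD1 goes with another level of these genes in any class. The UMIs of a class, summed within each library, were tested with edgeR's quasi-likelihood test, with Benjamini-Hochberg (BH) adjustment over all genes tested in a class and a threshold of 0.05. Without regard to the replicate numbers, 0 of 82 tests of a member passed in 53 fits, which cover all nuclei, all neurons, 13 of the 15 classes and 38 neuron clusters. Border macrophages and lymphocytes, the classes with the highest mean Foxp1, had under 10 nuclei in a library and were not tested. In those fits the share of all tested genes that passed was 0% in all neurons, in excitatory neurons, in inhibitory neurons and in the Samd5 and Esrrg clusters, and 0.000338% in the 48 others. At an unadjusted p under 0.05 there were 93 of 17688 genes in all neurons and 87 of 15449 in inhibitory neurons, and 1 of the 82 tests of a member.

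Foxp1 differed little between genotypes. Its log2 fold change (PHD1-/- against PHD1+/+) was 0.04 in all neurons (SE 0.23), 0.05 in excitatory neurons (SE 0.23), 0.03 in inhibitory neurons (SE 0.21) and 0.26 in cholinergic neurons (SE 0.26). Over all 53 fits it ran from -0.32 to 0.44 with a median of 0.04, positive in 32 and negative in 21. The largest values among classes were 0.32 in Schwann cells (SE 0.42) and -0.26 in oligodendrocyte precursors (SE 0.24). At 1000 UMIs per nucleus, 17.1% ± 3.63 of excitatory neurons in PHD1+/+ and 18.1% ± 1.48 in PHD1-/- had a Foxp1 UMI (SD, n = 3 each; two-sided exact permutation p = 0.90), and 16.2% ± 3.40 against 17.0% ± 1.67 of inhibitory neurons (exact permutation p = 0.80, n = 3 each). With no thinning the shares were 52.8% and 56.8% of excitatory and 58.1% and 60.5% of inhibitory neurons. In neurons Foxp1 was lowest in replicate 1 of both genotypes (147 to 168 CPM in inhibitory neurons, against 210 to 220 in the other libraries).

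Foxp2 was higher in PHD1-/- inhibitory neurons within each replicate number. Replicates 1, 2 and 3 had 36.8, 54.7 and 61.1 CPM in the PHD1+/+ libraries, and 57.6, 78.9 and 85.5 in the PHD1-/- libraries. Replicate 1 was the lowest of each genotype, and PHD1-/- replicate 1 lay below PHD1+/+ replicate 3, so the groups overlapped. The log2 fold change was 0.54 (SE 0.25, edgeR adjusted p = 1.00).

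The replicate numbers were then taken as pairs, which the labels do not state. Over all neurons, deviations correlated at 0.65 and 0.64 within replicates 2 and 3, but also at 0.52 and 0.54 across these numbers. With the number as a block the same difference was 0.54 with an SE of 0.09 (edgeR, BH adjusted p = 0.00436). In this blocked fit 0.602% of genes passed in inhibitory neurons and 0.0129% passed as higher in PHD1-/-, which is 2 genes, Foxp2 among them. Leaving out each replicate number in turn gave 0.52 to 0.59 with the block, past the threshold each time (edgeR adjusted p at most 0.0142). Without the block, replicates 2 and 3 alone gave 0.52 (edgeR adjusted p = 0.514). DESeq2 with the block gave 0.55 (adjusted p = 0.0218).

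Both inhibitory clusters highest in Foxp2 had higher values in PHD1-/- within each replicate number. Of these, only the Samd5 cluster passed, in edgeR with the block. In the Samd5 cluster Foxp2 had 80.9, 121 and 139.7 CPM in PHD1+/+ and 139, 187 and 212 in PHD1-/-, with the lowest PHD1-/- value just below the highest PHD1+/+ value. The log2 fold change was 0.65 (SE 0.25, unadjusted p = 0.027, edgeR adjusted p = 1.00), and 0.65 with the block (SE 0.11, edgeR adjusted p = 0.000995). In that blocked fit 0.188% of 11703 genes passed, and 0.0256%, or 3 genes, as higher in PHD1-/-. DESeq2 with the block did not call it (adjusted p = 1.00) and called 0 genes in this cluster. This cluster holds 1379 of the 2765 Foxp2 UMIs of inhibitory neurons, so it is no independent evidence beside the class.

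In the Esrrg cluster, with another 1066 of those UMIs, Foxp2 had 119, 133 and 121 CPM in PHD1+/+ against 147, 169 and 167 in PHD1-/-. Every PHD1-/- library was above every PHD1+/+ library. The log2 fold change was 0.36 (SE 0.17), and 0.38 with the block (SE 0.12, edgeR adjusted p = 0.49). In that fit 0.00932% of genes passed, and Foxp2 was not among them.

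Excitatory neurons did not show this order. Foxp2 had 22.6, 20.7 and 33.4 CPM in PHD1+/+ and 14.7, 28.1 and 22.2 in PHD1-/-, so it was lower in PHD1-/- in replicates 1 and 3 and higher in replicate 2. The log2 fold change was -0.22 (SE 0.31), and -0.17 with the block, where 0.0501% of genes passed and 0.0251% passed as higher in PHD1-/-. Without replicate 2 the blocked value was -0.60 (edgeR adjusted p = 0.0453), a call in the direction opposite to that in inhibitory neurons. In the excitatory clusters led by Lrmda and by Mecom it was -0.20 (SE 0.29) and -0.13 (SE 0.35), and in the unresolved Chd7 cluster 0.50 (SE 0.27).

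The difference between the 2 neuron types was then tested directly, with the library as a block. This contrast was not among the planned comparisons. It uses the same counts as the values above, so it is no independent evidence. The genotype change of Foxp2 was larger in inhibitory than in excitatory neurons by 0.66 (SE 0.13), with an unadjusted p of 1.7e-05 that did not pass over 16661 genes (edgeR adjusted p = 0.284). This fit called 0% of genes, with 700 at an unadjusted p under 0.05. As a ratio within each library, log2 of inhibitory over excitatory Foxp2 was 0.70, 1.40 and 0.87 in PHD1+/+ and 1.97, 1.49 and 1.95 in PHD1-/-, without overlap (0.99 ± 0.37 against 1.803 ± 0.27, SD, n = 3 each; two-sided exact permutation p = 0.10). The same interaction was -0.04 for Foxp1 (SE 0.06) and -0.03 for Foxp4 (SE 0.23).

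**Figure D3:**
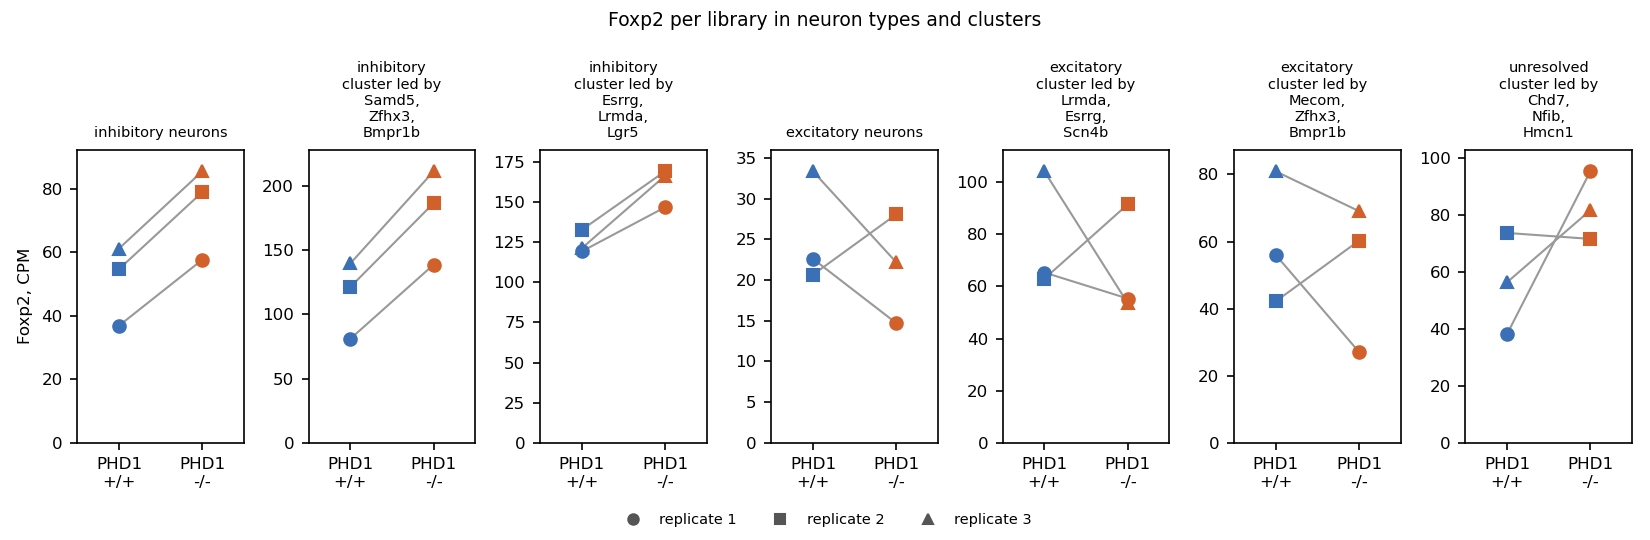
Foxp2 CPM (y axes, linear from 0, each with its own range) per library in inhibitory and excitatory neurons and in the 5 neuron clusters above 50 CPM, with PHD1+/+ left and PHD1-/- right and lines joining libraries of the same replicate number. All 3 lines go up in inhibitory neurons and in the Samd5 and Esrrg clusters, and the lines cross in excitatory neurons.

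The share of inhibitory nuclei with a Foxp2 UMI lay in the same order. At 1000 UMIs per nucleus it was 2.95, 3.21 and 3.67% of inhibitory neurons in PHD1+/+ and 3.75, 4.72 and 4.48% in PHD1-/-, without overlap (3.28% ± 0.367 against 4.32% ± 0.504, SD, n = 3 each; two-sided exact permutation p = 0.10). In excitatory neurons it was 1.24% ± 0.218 against 0.970% ± 0.360 (exact permutation p = 0.40, n = 3 each). In mature oligodendrocytes, which serve as background here, it was 0.398% ± 0.424 against 0.109% ± 0.129. Of inhibitory nuclei, 0 to 20 per library were left out as too shallow, and of oligodendrocytes 125 to 1600, with library median depths of 2797 to 7827.5 and 876 to 1934 UMIs. Without thinning the inhibitory shares were 8.72% and 9.49% (exact permutation p = 0.50, n = 3 each).

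The Samd5 cluster, the highest in Foxp2, made up 17.0, 17.8 and 19.1% of inhibitory nuclei in PHD1+/+ and 19.4, 18.4 and 20.3% in PHD1-/-. Its share was thus higher in PHD1-/- within each replicate number, while the genotypes overlapped (18.0% ± 1.07 against 19.3% ± 0.940; exact permutation p = 0.20, n = 3 each). The Esrrg cluster made up 7.91% ± 2.79 against 8.94% ± 3.39 (exact permutation p = 0.80, n = 3 each), higher in PHD1-/- in replicates 1 and 2 and lower in replicate 3. The part of these shares in the Foxp2 difference of the whole class was not tested. Markers of the other classes high in Foxp2 were also read in these nuclei. In the Samd5 cluster the 6 precursor markers summed to 817 to 911 CPM in PHD1+/+ and 919 to 939 in PHD1-/-, and the 6 meningeal markers to 5.44 to 37.5 against 1.39 to 17.4, with 0 of the 12 markers absent from all libraries. In inhibitory neurons as a whole the sums were 687 to 882 against 771 to 943 and 9.07 to 31.5 against 6.77 to 21.6. The precursor sums of the Samd5 cluster were higher in PHD1-/- without overlap, and those of inhibitory neurons as a whole overlapped. Precursor sums were 749 to 1018 against 869 to 1019.7 in excitatory neurons, and 1125 to 1778 against 1423 to 1633 in the excitatory Lrmda cluster. The genotypes overlapped in both. Sox6, a precursor marker, was also a leading gene of an inhibitory neuron cluster, so the sum is not specific to precursors. The part of these transcripts in the Foxp2 difference was not tested.

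Outside neurons no Foxp2 difference passed, with or without the block. The log2 fold change was 0.20 in oligodendrocyte precursors (SE 0.29) and -0.16 in meningeal fibroblasts (SE 0.35). In all neurons it was 0.34 (SE 0.24), and 0.35 with the block (edgeR adjusted p = 0.250, where 0.187% of genes passed and 0.0226% passed as higher in PHD1-/-). Foxp2 had enough counts for a test in 16 of 53 fits and was positive in 11 of them. Foxp4 could be tested in 13 fits, from -0.71 in the unresolved Chd7 cluster (SE 0.55) to 0.30 in precursors (SE 0.44), and it was negative in 11. With the block 0 of the Foxp1 and Foxp4 tests passed, and in the 48 fits other than all, excitatory and inhibitory neurons and the Samd5 and Esrrg clusters, 0.0837% of all gene tests passed, none of them a member.

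**Figure D4:**
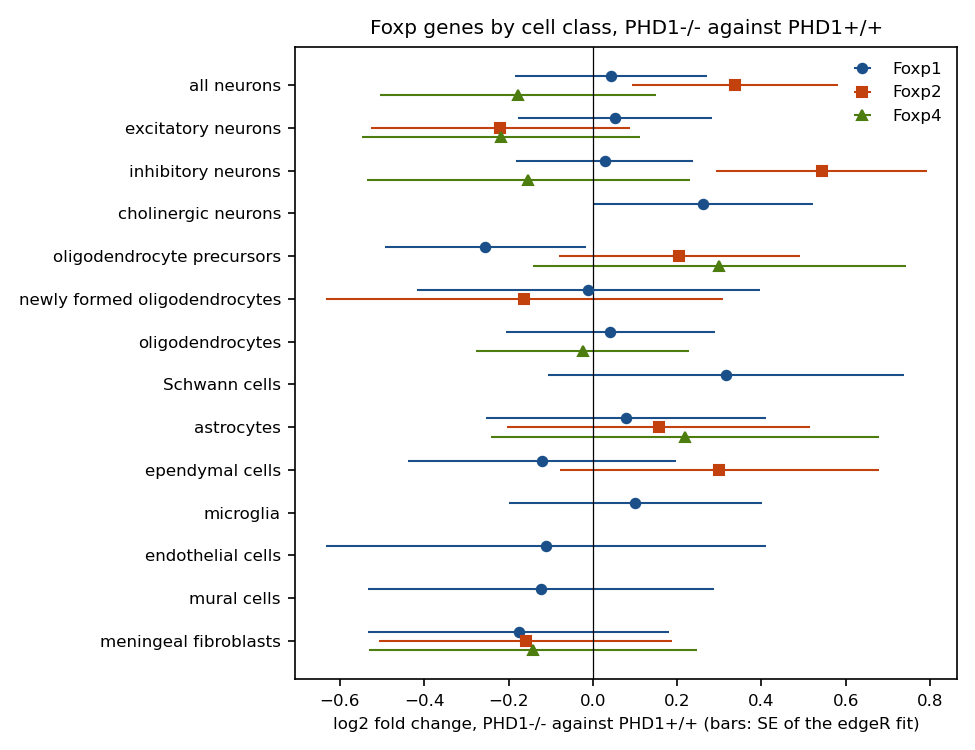
Log2 fold change of Foxp1, Foxp2 and Foxp4 between PHD1-/- and PHD1+/+ (x axis) by cell class, with bars for the SE of the edgeR fit without a block. Foxp1 lies between -0.26 and 0.32 in the classes tested, and the largest positive value is Foxp2 in inhibitory neurons, 0.54.

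The genes that work with or beside the family were described from lists. Of 24 corepressor and partner genes, 23 were tested in all neurons, with 14 positive and 9 negative values and a median log2 fold change of 0.03, against a median of -0.01 and 47.3% positive over all 17688 genes. The most abundant were Sox5, a transcription factor (201 CPM, 0.07, SE 0.14), and Zmym2, a zinc finger protein of a corepressor complex (174 CPM, 0.22, SE 0.15). Of 8 genes reported as Foxp2 targets, 7 were tested, 4 positive and 3 negative with a median of 0.05. Cntnap2, a neurexin-family adhesion gene, had 4962 CPM (0.08, SE 0.21), and Mef2c, a transcription factor of synapse development, 99.2 (-0.02, SE 0.15).

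In inhibitory neurons, where Foxp2 differed only with the block, 5 of the 7 testable target genes were positive without it (median 0.07). Over all 15449 genes 47.6% were positive, with a median of -0.01. With the block 6 of the 7 were positive (median 0.08), against 49.0% of all genes. In both fits 0 of these target genes had an unadjusted edgeR p under 0.05. Of the V1 interneuron factors 7 of 21 were positive in all neurons (median -0.06), led in level by the nuclear receptor gene Esrrg (392 CPM, 0.03, SE 0.30) and Zfhx4 (132 CPM, 0.03, SE 0.32). Of the motor column genes, which include the Hox genes that act with Foxp1, 6 of 20 were positive (median -0.10). Gfra1, a coreceptor for the growth factor Gdnf, had 94.8 CPM (-0.10, SE 0.28) and the guidance receptor gene Epha4 60.7 (-0.16, SE 0.19). Other forkhead genes were positive in 10 of 13 (median 0.05), led by Foxn3 (206 CPM, 0.03, SE 0.13) and Foxj3 (83.2 CPM, 0.11, SE 0.17). In these lists 0 genes passed the edgeR threshold in all neurons, with 0 at an unadjusted p under 0.05, and 0 passed with the block, with 4 at an unadjusted p under 0.05.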

How the data were processed

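The authors deposited raw UMI counts per gene and barcode for each library, with Cell Ranger 5.0.1 named in the file headers, and Cell Ranger 5.0.2, Scanpy 1.8.1 and mm10 in the submitters' processing notes. Counting of intronic reads: not given in the sources used here. Nuclei needed at least 500 UMIs, 300 genes and a mitochondrial share below 5%. Scrublet doublets were removed, and it called 0 in both replicate 1 libraries, so doublets remain there.

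Nuclei were clustered in Scanpy 1.11.5 (2000 variable genes, 30 components, 15 neighbours, Leiden resolution 1.0), and neurons again (1500 variable genes, scaled within libraries, resolution 2.0), with the 3 members left out of the variable genes. Names come from marker lists, and neuron clusters were called excitatory or inhibitory where the marker sums differed by a ratio of 2 or 8. A class was tested only with at least 10 nuclei in every library. Counts summed over a class in each library were fitted with edgeR 4.0.16 (R 4.3.3; TMM, filterByExpr, quasi-likelihood test, BH), without a block; DESeq2 1.42.0 was an alternative. The script was tested on simulated data.

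The members and lists were chosen with earlier results of these data known. The named genes are the members, the 5 genes nearest to each by r (highest CPM at least 50), and the 2 most abundant of each list plus any past the threshold. The other genes that define the clusters are named for identification. Replicate numbers were taken as pairs because, over all neurons, the deviations of same-numbered libraries from their group means correlated at 0.81, 0.65 and 0.64 for replicates 1, 2 and 3. Different numbers also correlated between replicates 2 and 3 (0.52 and 0.54) and at -0.70 to -0.68 between replicate 1 and the others. Deviations from a group mean cancel out, so an outlying replicate 1 alone brings replicates 2 and 3 together. The correlations thus set replicate 1 apart but hardly decide how replicates 2 and 3 pair. The labels do not tie the number to a litter. The labels do not say whether a library is 1 animal, and p-values measure the spread between libraries. In summed counts, fewer expressing nuclei and less RNA per nucleus cannot be told apart. One marker result is not reported here.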

Additional observations from a re-analysis of the deposited data

How the results depend on the processing

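With the replicate number as a block, edgeR called 33 genes in all neurons, 8 in excitatory neurons, 93 in inhibitory neurons, 22 in the Samd5 cluster and 1 in the Esrrg cluster, against 0 in each without it. With replicates 2 and 3 only it called 1 gene in excitatory neurons. The block brought Foxp2 past the threshold in inhibitory neurons and the Samd5 cluster, and it changed no other call of a member. In inhibitory neurons the blocked log2 fold change of Foxp2 was 0.54 over all libraries and 0.52, 0.54 and 0.59 without replicates 1, 2 and 3. It was 0.55 with DESeq2, 0.56 without the filter on low counts, 0.54 in nuclei with at least 1000 UMIs, 0.48 with the members among the variable genes and 0.49 with neurons clustered without scaling, past the threshold in each. In the Samd5 cluster the blocked values past the threshold were 0.65 over all libraries, 0.62, 0.65 and 0.68 without each number, 0.66 without the filter and 0.65 in nuclei with at least 1000 UMIs. In all neurons Foxp2 passed only with the block and no filter (0.35, edgeR adjusted p = 0.0463). These blocked alternatives, apart from the block itself, were chosen after seeing the data.

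With the block and without replicate 2, Foxp2 in excitatory neurons was -0.60 and passed the threshold (edgeR adjusted p = 0.0453), opposite in direction to inhibitory neurons. Other differences, none past the threshold, changed sign. With the block and without replicate 3, Foxp2 was 0.067 in excitatory neurons and 0.33 in the Lrmda cluster. In the Mecom cluster Foxp2 was 0.14 with replicates 2 and 3 only, and 0.14 and 0.081 with the block without replicates 1 and 3, and Foxp4 was 0.10 and 0.12 with replicates 2 and 3 only and with the block without replicate 1. Foxp1 in inhibitory neurons was -0.0231 and -0.0226 in these last settings. The difference in the share of inhibitory neurons with a Foxp4 UMI was -0.249 points at 2000 UMIs. The cause of these changes was not tested.

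Leaving out 1 library at a time without the block, Foxp1 ran from -0.13 to 0.19 in all neurons, -0.11 to 0.21 in excitatory and -0.14 to 0.14 in inhibitory neurons, each time with the ends set by the 2 libraries of replicate 1. Foxp2 ran from -0.46 to 0.0501 in excitatory neurons, -0.53 to 0.0867 in the Lrmda cluster, -0.36 to 0.18 in the Mecom cluster, -0.0645 to 0.40 in oligodendrocyte precursors and -0.45 to 0.13 in meningeal fibroblasts. Foxp4 ran from -0.41 to 0.085 in all neurons, -0.46 to 0.0753 in excitatory neurons, -0.47 to 0.11 in inhibitory neurons and -0.42 to 0.39 in the Mecom cluster. The genotype difference in the share of nuclei with a UMI ran from -1.05 to 2.26 points for Foxp1 in excitatory neurons, -1.08 to 2.23 in inhibitory neurons, and -0.294 to 0.0714 for Foxp4 in excitatory neurons. Depth limits Foxp4 most, with 1609 UMIs over 41896 nuclei.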

Other observations

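Several other forkhead genes, chosen here after their values were seen, were highest in 1 or a few classes outside the neurons, and others were broad. In endothelial cells Foxq1 had 146 CPM (mean of 6 libraries), with the next class at 3.78, and Foxf2 had 49.5, with mural cells next at 16.4. Foxc1 had 97.1 in endothelial cells and 75.4 in meningeal fibroblasts. Foxo1, a factor of insulin and growth signalling, was broad outside the neurons. It was highest in endothelial cells at 183, with lymphocytes next at 141 and a median over classes of 60.1, against 7.82 in neurons. Foxd1 had 133 in meningeal fibroblasts and 83.0 in mural cells. Foxj1, which drives the genes of motile cilia, had 66.4 in ependymal cells, but it was among the markers used to name that class. Foxd3 had 23.6 in Schwann cells and Foxb1 13.3 in astrocytes. Foxn3 was broad, at 1071 in microglia and 206 in neurons, and so was Foxj3, at 83.2 in neurons. Foxp3, the member of the P subfamily known from regulatory T cells, had 64 UMIs over all nuclei, and 0 in the cholinergic neurons. These are descriptions of levels, without a test.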
